A study of Mus musculus with 6 samples.

Results

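Gapdh, Gk, G6pd2 and Ldhal6b are 4 enzyme genes of sugar and glycerol metabolism measured in fetal and adult mouse liver. They were chosen by probe, as the probes of the array whose RefSeq accessions name these enzymes, out of 15 genes named in this way and 60915 probes outside the controls. Each of the 4 probes was printed as 20 spots on every array. All 4 probes were well above background on all 6 arrays, meaning that over 0.5 of a probe's used spots carried the scanner software's flag for it.

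The liver RNA came from untreated C57/BL6 mice, all labelled male. The fetal group is embryonic day 18 and the adult group 2 months of age, with 3 arrays each, which the series' text describes as independent experiments. Whether each fetal RNA came from 1 liver or from pooled livers is not given in the labels, so the p-values measure the spread between these samples. After removal of ribosomal RNA, each sample was copied from random primers into Cy3-labelled RNA and measured in 1 colour on the Arraystar mouse lncRNA array, an Agilent design that also holds coding transcripts. The design asks which transcripts differ in level between the stages.

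Glucose entering a liver cell can be split to pyruvate by glycolysis, turned to lactate, or oxidised in the pentose phosphate pathway, which yields NADPH for lipid synthesis and defence against oxidants. Adult liver also makes glucose, and it takes up glycerol released by fat tissue and phosphorylates it so that it can enter the same pathway. Late fetal liver is still a blood-forming organ and lives mainly on glucose from the mother. Gapdh encodes glyceraldehyde phosphate dehydrogenase of glycolysis and gluconeogenesis. Ldhal6b encodes a lactate dehydrogenase-like protein, Gk encodes glycerol kinase, and G6pd2 is an autosomal copy of G6pdx, the gene for the first enzyme of the pentose phosphate pathway. G6pd2 and Ldhal6b are best known from testis.

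A level here is the log2 signal of a probe, averaged over its spots, minus the log2 of the 75th percentile of signal on that array, so that 0 is the signal of that percentile. Differences are fetal minus adult. The 75th percentile lay between 68.3 on adult array 2 and 149.2 on fetal array 2, and 45.0% to 60.6% of probes were well above background. Adult arrays 1 and 2 and fetal arrays 2 and 3 share 1 scan time in the file headers (scan 1), and adult array 3 and fetal array 1 share another (scan 2). Of 47 genes of glycolysis, gluconeogenesis, lactate, glycerol and pentose phosphate metabolism that were looked for, the 4 members were the ones with a named probe, with control probes for Pgk1 besides. Of 33 cell type markers looked for, only Tfrc, of erythroid cells, has a named probe, so no hepatocyte marker could be read. Tfrc was 3.62 higher in fetal liver on the log2 scale (limma adjusted p = 1.8e-04), and the part of erythroid cells in the values of the 4 genes was not tested. In such bulk samples fewer cells of a type and less RNA per cell cannot be told apart.

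None of the 4 genes changed between the stages by the call used, a limma p under 0.05 after Benjamini-Hochberg adjustment over all 32330 tested probes together with a change of at least 2-fold. By comparison, 26.0% of all tested probes were called. In the reported fit of all 6 arrays, without array weights, no member was at an unadjusted limma p under 0.05, against 40.5% of tested probes. The series' text gives a filter of 2-fold and p of at most 0.05. With unadjusted p from an equal-variance test without moderation, none of the 4 passed it, against 8716 of the 32330 tested probes. With adjusted p none passed either, against 5690. By that test 1 member, Gk, was at an unadjusted p under 0.05. The share of all tested probes under that p by the same test was not computed, so this is a description only. In the reported limma fit none of the 4 differed by 2-fold or more in either direction, against 38.7% of tested probes. For 3 of the 4 genes, Gk, G6pd2 and Ldhal6b, the levels of the stages did not overlap, a pattern that 47.5% of all tested probes share.

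**Figure D1:**
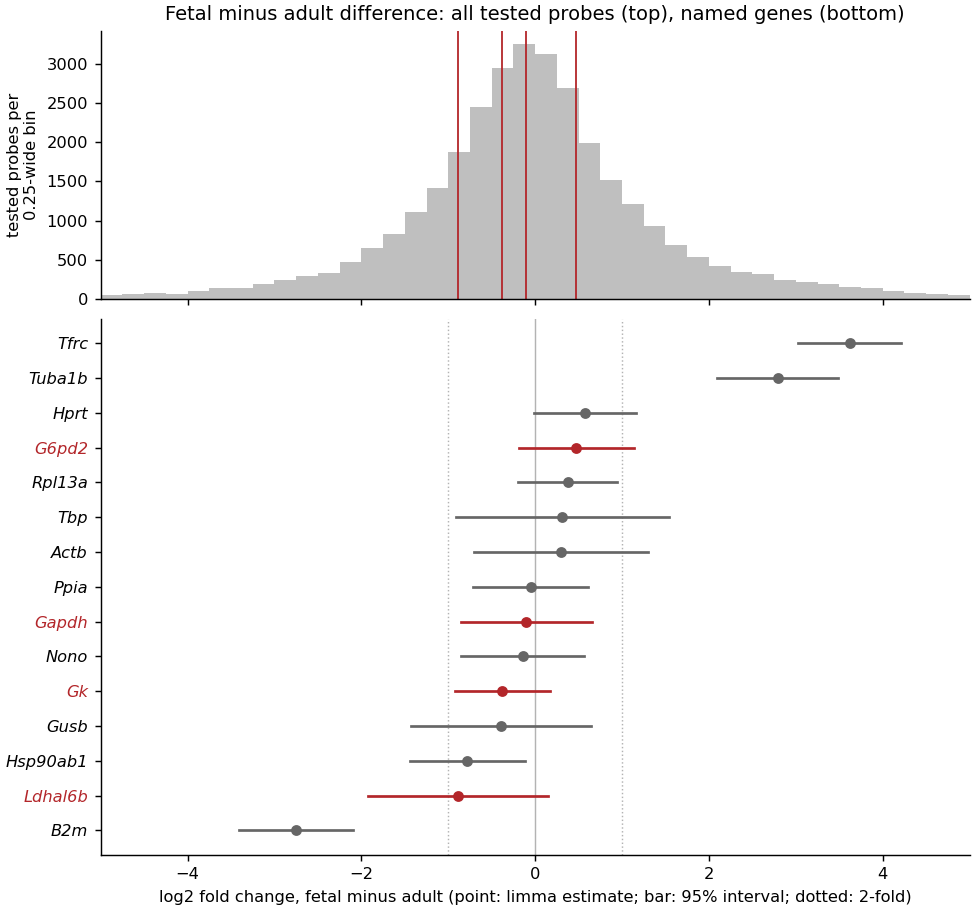
The upper panel counts the tested probes by log2 fold change, fetal minus adult, in bins of 0.25 between -5 and 5 (probes beyond are not drawn), with red lines at the 4 enzyme genes. The lower panel gives the limma estimate (point) and 95% interval (bar) of the 15 named genes. The intervals of Gapdh, Gk, G6pd2 and Ldhal6b all include 0, and those of Gapdh and Gk stay within the dotted 2-fold lines.

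Gapdh, widely used as a reference gene, stood at nearly the same level in both stages. On the adult arrays, in the order 1 to 3, the mean signal was 34102, 22555 and 18016, and on the fetal arrays it was 13578, 48512 and 25654. Relative to the 75th percentile these were levels of 8.24, 8.37 and 7.87 in adult and 7.55, 8.34 and 8.29 in fetal liver. The groups overlapped: fetal array 1 was the lowest of all 6 arrays, adult array 3 the next lowest, and the other 4 arrays lay together. By brightness the probe ranked between 512th and 1065th among the 60915 probes, at percentiles of 98.3 to 99.2.

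Averaged by stage, Gapdh stood at 8.06 ± 0.45 in fetal liver against 8.16 ± 0.26 in adult liver (mean ± SD, n = 3 each), a difference of -0.10 (SE 0.32, 95% interval -0.85 to 0.66, limma adjusted p = 0.844). Of all tested probes 92.1% differed by as much or more in either direction. In this fit the interval left out a 2-fold change either way, but it did not settle the sign. Without adult array 3 the difference was -0.24 with an SE of 0.37, so not every fit left out a 2-fold fall. Scan 2 alone, with 1 array of each stage, gave -0.32 and scan 1, with 2 of each, gave 0.012. Without fetal array 1 the difference was 0.16, and with quantile normalization it was 0.10.

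The arrays also carry 6 control probes for GAPDH, a 3′ and a 5′ probe each in mouse, rat and human sequence, with 10 spots a probe. The mouse 3′ control stood at 7.12, 7.19 and 6.71 on the adult arrays and at 6.36, 7.30 and 7.11 on the fetal ones. It followed the RefSeq-named Gapdh probe array by array: the named probe exceeded it by 1.15 ± 0.06 (SD over the 6 arrays), while the named probe itself ranged over 0.82. Across the 6 arrays, which share their scaling, the levels of both probes correlated at r = 0.99. The dip on fetal array 1 was therefore seen by 2 separate probes, and it was the lowest array for 5 of the 6 GAPDH controls. Of the negative-control spots on that array 7.69% were flagged above background, against at most 1.06% on any other array. Probes of 1 array with a common scaling cannot tell a lower Gapdh level in the sample from a property of the array.

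The stage difference of the mouse 3′ GAPDH control was -0.08 and that of the mouse 5′ control 0.02. By the exact two-sided permutation test over the arrays, p was 0.8 and 1, where 3 arrays against 3 cannot give a p under 0.1. The 6 GAPDH controls differed between stages by -0.39 to 0.39. In 5 of them the stages overlapped. The exception was the rat 3′ probe, at 1.94 ± 0.06 in fetal liver against 2.33 ± 0.08 in adult liver (n = 3 each; exact permutation p = 0.1, adjusted over the 12 GAPDH and PGK1 controls 0.982). That probe did not follow the named Gapdh probe across arrays (r = 0.05), and what it binds in mouse liver was not tested.

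Pgk1 encodes phosphoglycerate kinase, which acts on the product of Gapdh in the next step of glycolysis. Its mouse 3′ control probe stood at 7.48, 6.98 and 6.86 on the adult arrays and at 5.39, 7.70 and 7.30 on the fetal arrays. Fetal array 1 was again far below the rest, and fetal arrays 2 and 3 lay around the highest adult array. The stage difference was -0.31 (exact permutation p = 0.9, adjusted 0.982, n = 3 each), with 0.27 on scan 1 and -1.47 on scan 2. Without fetal array 1 it was 0.39. The mouse 5′ PGK1 control stood at -0.15, -1.38 and -1.36 on the adult arrays and at -2.45, 0.73 and 0.32 on the fetal arrays. Fetal arrays 2 and 3 were the highest and fetal array 1 the lowest, where only 44.4% of the spots were above background against 100% on the other 5 arrays. Its stage difference was 0.50, opposite in sign to the 3′ control (exact permutation p = 0.8, adjusted 0.982, n = 3 each), and 1.49 without fetal array 1.

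**Figure D2:**
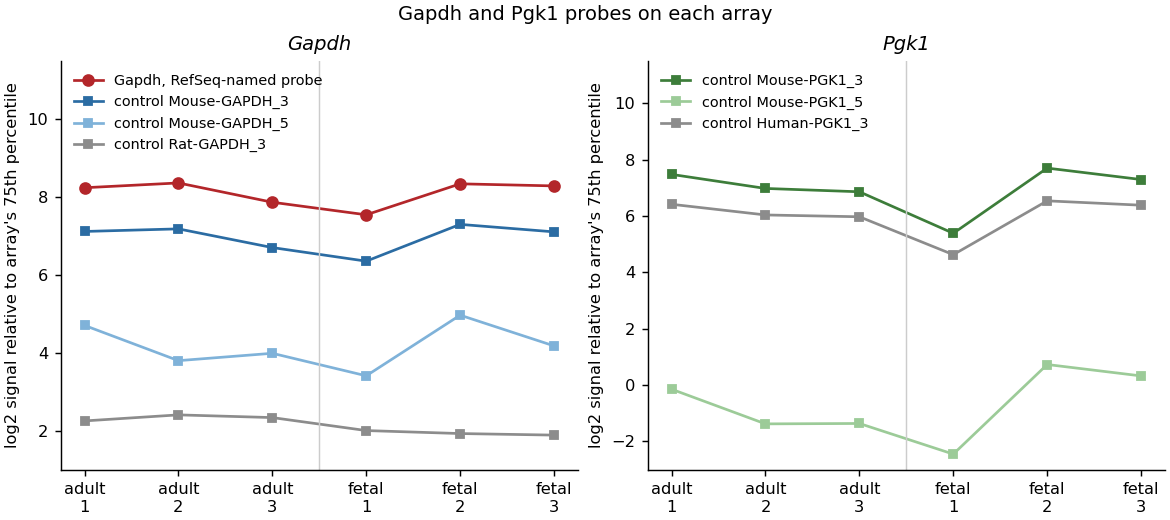
Level of the RefSeq-named Gapdh probe and of control probes for Gapdh (left) and Pgk1 (right) on each array, as log2 signal relative to the array's 75th percentile. Lines join the arrays to guide the eye. The named Gapdh probe and the mouse 3′ control run in parallel, 1.15 apart, and fetal array 1 is lowest for both and for the Pgk1 probes.

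Ldhal6b had the largest difference of the 4 genes and the widest interval. On the adult arrays, in the order 1 to 3, the mean signal was 90.3, 55.6 and 69.3, and on the fetal arrays it was 17.6, 104.2 and 46.4. As levels these were -0.33, -0.30 and -0.15 in adult and -2.10, -0.52 and -0.83 in fetal liver. Every fetal array was below every adult array, but the gap between the nearest ones was only 0.18, and most of the mean difference came from fetal array 1. There only 14 of the 19 used spots were above background, and the probe's percentile among all probes was 55.9, against 68.1 to 73.9 on the other 5 arrays.

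Averaged by stage, Ldhal6b stood at -1.15 ± 0.84 in fetal liver against -0.26 ± 0.10 in adult liver (n = 3 each), a difference of -0.89 (SE 0.43, 95% interval -1.93 to 0.15, limma adjusted p = 0.177). This is a level 1.85-fold higher in adult liver, with an interval from 0.901-fold to 3.80-fold. The fetal SD was larger than that of 75.4% of tested probes, and the adult SD larger than that of only 6.54%. The difference was -0.41 without fetal array 1. It passed 2-fold without fetal array 2 (-1.20, limma adjusted p = 0.0981, the unadjusted one being 0.0335) and without fetal array 3 (-1.05, limma adjusted p = 0.213). Scan 1 gave -0.36 and scan 2 -1.95. With limma's array weights, which count deviating arrays less, it was -0.56 (limma adjusted p = 0.0894, the unadjusted one being 0.0469). With normexp background correction, whose offset of 50 is as large as many of these signals, it was -0.38.

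Gk, the enzyme that traps glycerol in the cell, had even levels within each stage when its used spots were averaged, and a modest shift between stages. On the adult arrays, in the order 1 to 3, the mean signal was 193.0, 104.5 and 112.9, and on the fetal arrays it was 87.2, 174.0 and 112.8. As levels these were 0.78, 0.61 and 0.55 in adult and 0.21, 0.21 and 0.38 in fetal liver. All fetal arrays were below all adult arrays, with a gap of 0.17 between fetal array 3 and adult array 3.

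Averaged by stage, Gk stood at 0.27 ± 0.10 in fetal liver against 0.64 ± 0.12 in adult liver (n = 3 each), a difference of -0.38 (SE 0.23, 95% interval -0.92 to 0.17, limma adjusted p = 0.262), or 1.30-fold higher in adult liver. These SDs were larger than those of only 4.07% and 10.4% of tested probes in the fetal and adult groups. limma pools the spread over probes, which raises such low values. Without limma's pooling, the equal-variance test on these means over spots gave an adjusted p of 0.0578 over all tested probes, with a change still under 2-fold. Scan 1 gave -0.40 and scan 2 -0.34.

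The low spread of Gk between arrays was not matched within them. The SD over its spots was 0.42 on fetal array 1 and 0.54 on fetal array 3, against 0.11 to 0.19 on the other arrays. On fetal array 3 the spots on the left side of the array (columns 1 to 82 of 164) averaged 0.09 and those on the right side 0.72. The left side read lower for Gk on all 6 arrays, by 0.06 to 0.63. Its 11 left-side spots carried all 12 of its outlier flags over the 6 arrays, and its 9 right-side spots none.

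The choice of spots decided whether Gk separated the stages. From the right side alone, fetal array 3 stood at 0.72, above adult arrays 2 and 3 at 0.66 and 0.62, and the stage difference was -0.24 (limma adjusted p = 0.508). From the left side alone the fetal levels were 0.05, 0.18 and 0.09 and the adult levels 0.73, 0.54 and 0.47, a difference of -0.47 (limma adjusted p = 0.168). With the median over spots in place of the mean, fetal array 3 stood at 0.63 and the stages overlapped again. The low fetal SD of Gk, 0.10 as reported, also depended on the spots. It was 0.24 with the median, 0.25 from the right side, 0.16 with outlier spots kept and 0.07 from the left side. The direction, lower in fetal liver, was the same in each case. The split into sides was chosen after the spots were seen, and the cause of the low spots was not tested.

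**Figure D3:**
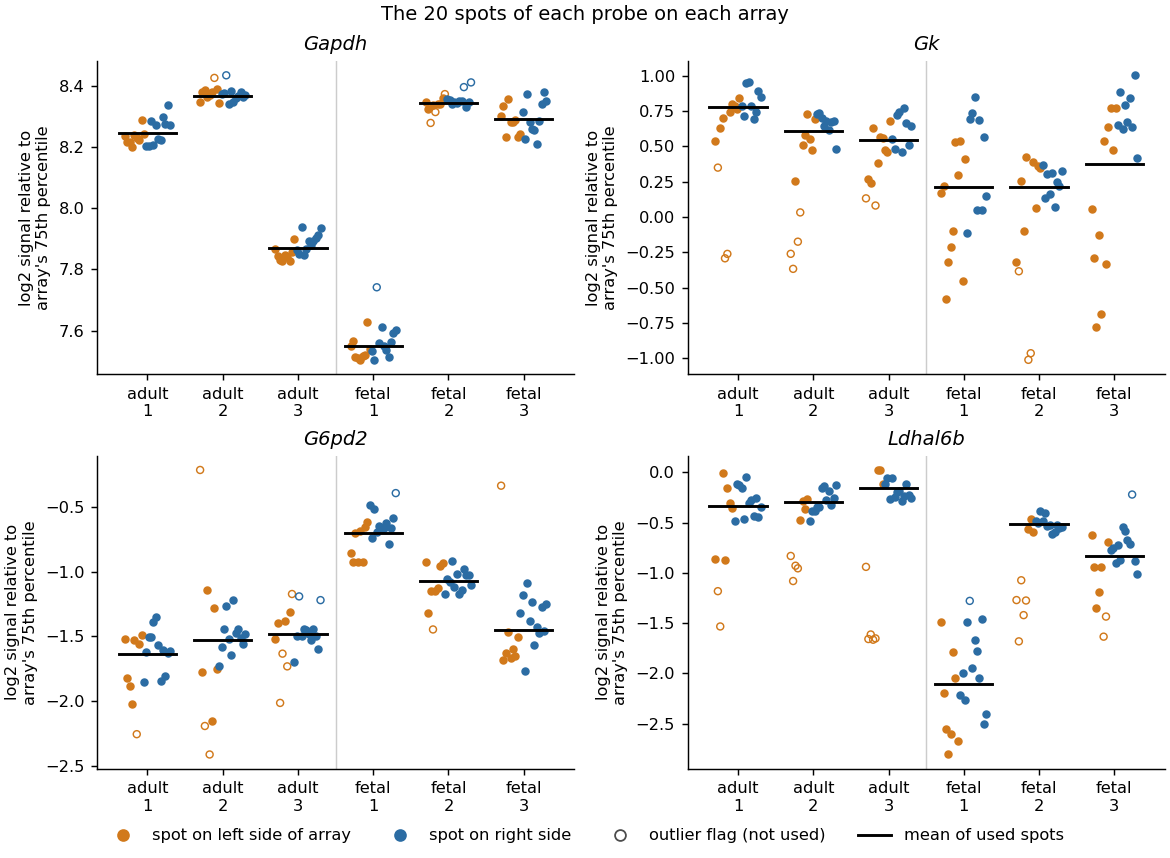
Every spot of the 4 probes on each array, as log2 signal relative to the array's 75th percentile, coloured by the side of the array it lies on (left, columns 1 to 82, or right). Open circles carry an outlier flag and were left out, and bars are means of the used spots. Low spots of Gk and Ldhal6b lie mostly on the left side, and the spots of Gapdh lie close together on each array.

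Over all 4 genes, 53 of 480 spots carried an outlier flag, at most 6 of 20 on an array. Ldhal6b had 18 flags on the left side and 2 in the right, G6pd2 10 and 3, and Gapdh 4 and 4. Used spots of Ldhal6b read 0.16 higher on the left side of adult array 3, and lower there on the other arrays. Levels also varied along the rows. On fetal array 1 used spots correlated with row at r = -0.56 for Gk and -0.65 for Ldhal6b, against 0.43 and 0.28 with column. On fetal array 2 the correlations with row were 0.70 and 0.44. Gapdh varied over its spots by an SD of only 0.01 to 0.05. Its spread between arrays was 47.3 times the standard error that its spots give, whereas for Gk that ratio was 1.58. Nearly all of the spread in Gapdh therefore lay between arrays.

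G6pd2 was the only one of the 4 genes with a higher level in fetal liver. On the adult arrays, in the order 1 to 3, the mean signal was 36.4, 24.0 and 27.6, and on the fetal arrays it was 44.6, 71.1 and 30.1. As levels these were -1.64, -1.53 and -1.48 in adult and -0.70, -1.07 and -1.45 in fetal liver. Fetal array 3 was only 0.03 above the highest adult array, so the groups barely separated, and fetal array 1 was the highest. In adult liver the probe was dim, at percentiles of 60.8 to 62.0 among all probes, but still 7.68 to 11.2 times the median negative-control signal there.

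Averaged by stage, G6pd2 stood at -1.08 ± 0.38 in fetal liver against -1.55 ± 0.08 in adult liver (n = 3 each), a difference of 0.47 (SE 0.28, 95% interval -0.19 to 1.13, limma adjusted p = 0.249). This is 1.39-fold higher in fetal liver, with an interval from 0.88-fold to 2.19-fold. The difference was 0.29 without fetal array 1, 0.32 on scan 1 and 0.78 on scan 2. It was 0.19 with array weights. With normexp, whose added offset of 50 shrinks log2 differences of a probe this dim, it was 0.14. The stages overlapped with normexp and from the left-side spots. How much of this signal comes from G6pdx transcripts was not tested, since the probe's own sequence was not used here, and the same holds for near-identical copies of Gapdh.

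Ratios within an array do not depend on the scaling between arrays, though they do depend on the background correction. Among the 6 pairs of the 4 genes, 3 had ratios that did not overlap between the stages: G6pd2 over Ldhal6b, Gk over G6pd2, and Gapdh over Ldhal6b. Each gave an exact two-sided permutation p of 0.1, the smallest that 3 arrays against 3 allow, and 0.2 after adjustment over the 6 pairs, so no pair could pass. Of single tested probes 47.5% did not overlap, and the 6 pairs share their members. The share of such ratios among other pairs of probes was not computed, so the count of pairs is a description only. The log2 ratio of G6pd2 to Ldhal6b was -1.30, -1.23 and -1.33 on the adult arrays and 1.40, -0.55 and -0.62 on the fetal ones. The adult values lay within a narrow band and every fetal value was higher.

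The ratio of G6pd2 to Ldhal6b was thus 1.36 higher in fetal liver on the log2 scale, 0.70 higher without fetal array 1, and 0.68 and 2.73 higher within scans 1 and 2. With normexp, whose added offset shrinks log2 differences of dim probes, it was 0.52 higher. The ratio of Gk to G6pd2 was lower in fetal liver by a log2 difference of -0.85 (-0.63 without fetal array 1 and -0.38 with normexp). The ratio of Gapdh to Ldhal6b was 0.79 higher (0.57 without fetal array 1 and 0.36 with normexp), and with normexp its exact permutation p was 0.4. The other 3 pairs overlapped between the stages. The ratio of Gk to Ldhal6b was 0.51 higher in fetal liver (exact permutation p = 0.4, adjusted 0.4) and 0.064 higher without fetal array 1. Measured against Gapdh in the same array, the usual way of scaling single-gene assays, Gk was on average lower and G6pd2 higher in fetal liver. The stage difference of Gapdh minus Gk was 0.28 (exact permutation p = 0.3, adjusted 0.36). That of Gapdh minus G6pd2 was -0.57 (exact permutation p = 0.3, adjusted 0.36). Gapdh minus Gk moved to 0.51 without fetal array 1 and to 0.11 without fetal array 2. Gapdh minus G6pd2 moved to -0.13 without fetal array 1, to -0.88 without fetal array 3 and to -0.16 with normexp.

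Fetal array 1 was the lowest array for Gapdh and Ldhal6b and the highest for G6pd2, while for Gk fetal arrays 1 and 2 were level at 0.21. The 15 named genes allow a comparison of such patterns over the 6 arrays, which share their scaling and hold both stages. The gene most like Gapdh was Ppia, a cyclophilin (r = 0.87), followed by Gusb, a lysosomal enzyme gene (r = 0.77). Gk was most like B2m, which encodes beta-2 microglobulin (r = 0.92), and Hsp90ab1, a cytosolic chaperone gene (r = 0.82). G6pd2 was most like Tuba1b, an alpha-tubulin gene (r = 0.79), and Tfrc (r = 0.74). Ldhal6b was most like Gusb (r = 0.74) and B2m (r = 0.73). B2m was lower and Tuba1b and Tfrc higher in fetal liver, and the correlations are given as descriptions.

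No member was called under any of the 22 other settings fitted. Gk and Ldhal6b were lower and G6pd2 higher in fetal liver in each of them. The same held on scan 2, which holds 1 array of each stage and has no test. Much of this was fixed in advance. Other filters on dim probes, blocks and the equal-variance test left the differences at -0.38, -0.89 and 0.47. Where the stages do not overlap, leaving out arrays cannot reverse the sign. The shared direction is therefore a description only. The sign of Gapdh varied.

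**Figure D4:**
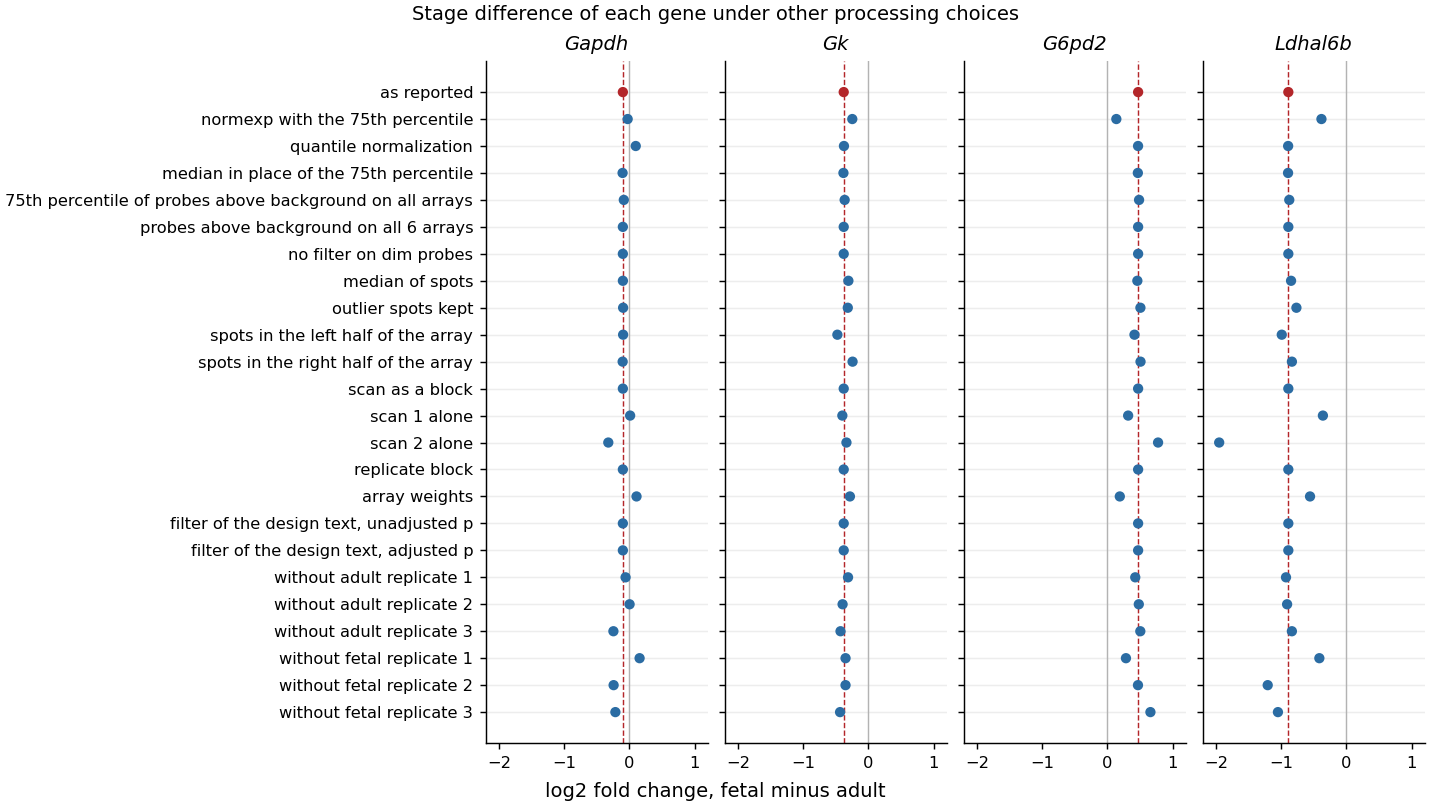
Log2 fold change, fetal minus adult, of each gene under every processing choice tried (blue) and as reported (red, dashed line). Gapdh stays between -0.32 and 0.16 around 0, Gk between -0.47 and -0.24, G6pd2 between 0.14 and 0.78, and Ldhal6b spreads from -1.95 to -0.36, the lowest value coming from scan 2 alone.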

How the data were processed

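Agilent Feature Extraction 11.0.1.1 made the scanner files that the authors deposited. The processed signal in these deposited files is a linear intensity, background-subtracted by that software and not scaled between arrays. Each spot also carries the software's flags for background, saturation and outliers. The array grid names mouse build mm9. Control spots (1439), negative-control spots (300) and outlier-flagged spots were left out. There were no saturated spots. limma 3.58.1 under R 4.3.3 (functions lmFit, eBayes) gave two-sided tests for every probe that passed the background flag on 3 or more arrays. The fit was tested on simulated data with noise independent between probes and arrays. That test did not cover deviations shared by a whole array or scan.

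RefSeq accessions were matched to symbols without versions in a RefSeq table for another build, GRCm38, whose coordinates were not used. The authors' deposited table of log2 values (17307 probes, column medians 5.94 to 6.11) lists none of the 4 probes. Each column matched its own array's quantile-normalized log2 signal with a median gap of at most 0.00222, so it is not centred. It was not used further.

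All 4 genes and their controls were named, with the 2 most similar named genes for each. The genes, lists and tests were chosen with earlier results of these data known. The scan time stands for the planned slide, and normexp used the median spot signal because the files hold no mean signal column. The number of arrays limits the precision.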

Additional observations from a re-analysis of the deposited data

How the results depend on the processing

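The difference of Gapdh changed sign with quantile normalization (0.10), on scan 1 (0.012) and with array weights (0.11), and ranged from -0.24 to 0.16 as single arrays were left out. The ratio of Gk to Ldhal6b, 0.51 over all arrays, turned to -0.040 on scan 1. The mouse GAPDH 3′ control turned to 0.14 with quantile normalization and 0.053 on scan 1 (-0.27 to 0.20 with single arrays left out). The mouse PGK1 3′ control turned to 0.27 on scan 1 (-0.76 to 0.39). On scan 2 the mouse GAPDH 5′ control turned from 0.02 to -0.58 (-0.37 to 0.41). The mouse PGK1 5′ control turned from 0.50 to -1.09 on scan 2 (-0.10 to 1.49), whose fetal array is the one where it was near background.

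The count of all called probes, 8421, was 4541 with normexp and 5210 when only probes detected on every array were tested, and ran from 5318 (without adult array 2) to 10020 (without fetal array 1) with single arrays left out. With the replicate block it was 4499. With scan as the block it was 10124, and Ldhal6b was at a limma adjusted p of 0.118. Deviations from the stage means correlated at -0.53, -0.35 and -0.31 between same-numbered arrays, and no fetal array correlated best with its own number. Each fetal array correlated best with an adult array of its own scan, so these correlations cannot decide whether replicate numbers pair the samples. Neither block changed a call of the 4 genes. The causes of these shifts were not tested. The sides of the array were compared after the data were seen. For Ldhal6b on fetal array 1, signal over background limits the value.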
